A study of Mus musculus with 2 samples.

Results

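SLAM family receptors are surface glycoproteins of the immunoglobulin superfamily that blood cells use to sense one another. The 6 receptor genes examined here, Slamf1, Slamf6, Slamf7, Cd48, Ly9 and Cd84, were taken as a named family, and their members are all probe sets that the array's annotation assigns to just one of these genes. They are 6 of the 18194 genes that could be named on the array, read by 11 probe sets. The samples are cultured, activated B cells of mir155 KO and mir155 WT mice on a C57 background from Jackson Laboratory, with 1 array for each genotype. Both cultures came from male mice, and both were exposed to cycloheximide, which blocks translation elongation, for a few minutes before harvest. The growth protocol names haematopoietic progenitors kept in G-CSF and stem cell factor, whereas the cell type entry names B cells. The labels do not say which activating stimulus was used, how the Mir155 gene was disrupted, the age of the mice or how many mice gave cells to an array.

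The genotype labels contradict each other. Titles and genotype entries give one assignment and source names the opposite one for both arrays. Each array is called here by its title, as the KO-titled and the WT-titled array, and every difference is KO-titled minus WT-titled in log2 units. Under the source names every sign would be turned. Mir155hg, the host transcript of miR-155, had a level of 10.88 on the KO-titled array and 6.63 on the WT-titled array, where it was below 6.71, the level taken here for an expressed gene. Against that level it was at least 18.0-fold higher on the KO-titled array, which goes against the titles. Where its probe set lies relative to the disrupted part was not determined.

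The microRNA whose gene separates the genotypes is shown for orientation. Its mature form, from RefSeq with GRCm38.p6 coordinates chr16:84714143-84714165 on the plus strand, is printed with the seed, bases 2 to 8, in capitals. Sites for it in the receptor transcripts were not searched here.

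mmu-miR-155-5p: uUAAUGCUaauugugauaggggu

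Most SLAM receptors bind a copy of themselves on a neighbouring cell, so the same gene supplies both ligand and receptor. CD48 is the exception within this group, since it is held in the membrane by a lipid anchor and binds CD244 and, in mice, CD2. The cytoplasmic tails of the other receptors carry tyrosine motifs that bind the small adaptor SAP, encoded by Sh2d1a, or its relatives, and through them Src family kinases such as FYN. Without adaptor the same motifs can recruit the phosphatases SHP-1, SHP-2 and SHIP1. In lymphoid tissue the family is best known for prolonging contacts between T and B cells in germinal centres.

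On these arrays Slamf1 and Slamf7 lay at opposite ends of the family, and the other receptor genes were nearly level. Slamf1 was lower by 1.36-fold and Slamf7 higher by 1.36-fold on the KO-titled array. The remaining 4 receptors differed by 0.07 or less on the log2 scale. All 6 genes and all 11 probe sets were at or above 6.71, the median level of the array's probe sets other than controls, which is the level taken here for an expressed gene. With 1 array per label each value is a single measurement, no spread between mice or cultures can be estimated, and no test was possible. In RNA from whole cultures, fewer cells that express a gene and less RNA per cell cannot be told apart.

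Slamf1 encodes CD150, a self-binding receptor that acts as a costimulatory molecule on activated lymphocytes and as a sensor of bacteria in phagocytes. Its probe set with the highest level, 1425570_at, read 11.52 on the KO-titled array and 11.97 on the WT-titled array, a log2 difference of -0.45. The second, 1425569_a_at, read 10.09 on the KO-titled array and 10.51 on the WT-titled array (-0.42). The third, 1425571_at, read 9.48 on the KO-titled array and 9.79 on the WT-titled array (-0.31). All 3 probe sets were thus lower on the KO-titled array. The annotation gives the same source sequence for all 3. They are repeat readings of one gene on the same arrays and not independent samples. Which transcript forms each set reads was not determined.

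Slamf7 encodes CRACC, also called CS1, a self-binding receptor known for its high level on plasma cells. It was read by a single probe set, 1453472_a_at, at 10.94 on the KO-titled array and 10.49 on the WT-titled array. The difference of 0.45 could not be checked against a second probe set. Slamf7 minus Slamf1 came to 0.90, so these receptors differed in opposite directions.

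Cd48 had 10.96 on the KO-titled array and 10.91 on the WT-titled array, a difference of 0.05. Ly9, which encodes the self-binding receptor CD229, had 10.65 on the KO-titled array and 10.68 on the WT-titled array, a difference of -0.03. Each was read by 1 probe set, and neither array stood above the other by more than a few hundredths.

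Cd84 encodes a self-binding receptor that takes part in adhesion between T and B cells. Its main probe set, 1422875_at, read 9.62 on the KO-titled array and 9.56 on the WT-titled array, a difference of 0.07. The dimmer set 1446505_at read 7.30 on the KO-titled array and 7.06 on the WT-titled array, a difference of 0.24. Both were higher on the KO-titled array, by different amounts.

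Slamf6 encodes Ly108, a self-binding receptor of T, B and natural killer cells. Its main probe set, 1425086_a_at, read 10.47 on the KO-titled array and 10.45 on the WT-titled array, a difference of 0.02 that turned to -0.02 after quantile normalization and -0.03 after a loess correction. The set 1420659_at read 9.81 on the KO-titled array and 9.64 on the WT-titled array (0.17). The set 1457773_at read 7.15 on the KO-titled array and 7.31 on the WT-titled array (-0.15). The 3 sets therefore disagreed in sign, and no direction is given for Slamf6.

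**Figure D1:**
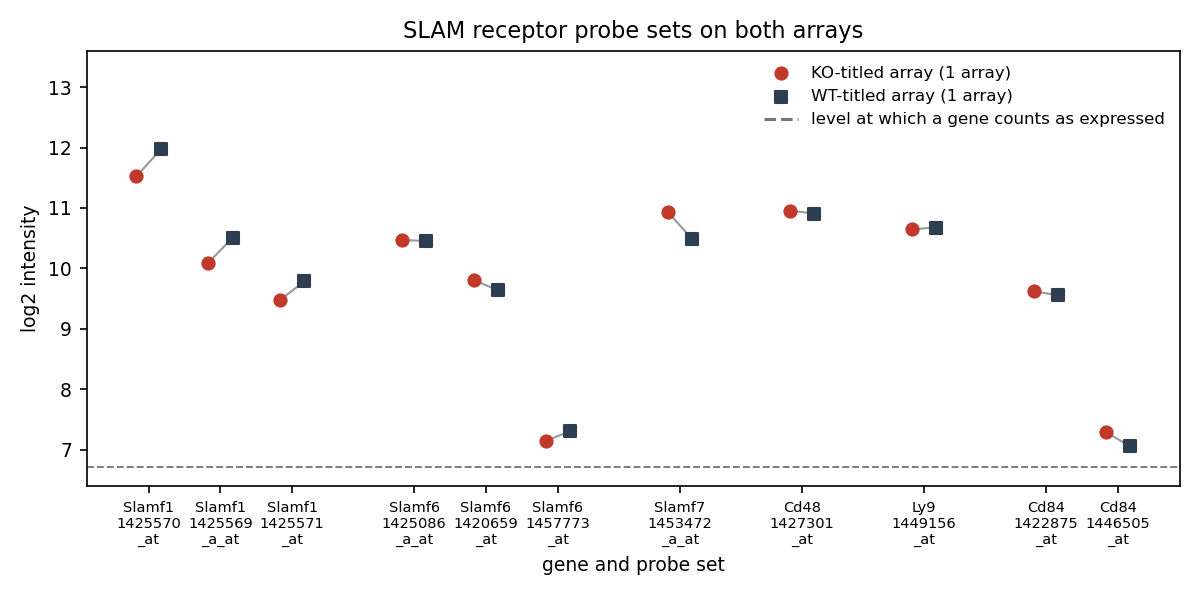
Level of each SLAM receptor probe set in log2 intensity, with a circle for the KO-titled array and a square for the WT-titled array, 1 array each. The 3 Slamf1 sets are lower and the Slamf7 set higher on the KO-titled array, while the main sets of the other genes are nearly level. Levels of different probe sets are not comparable with each other.

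The sizes were set against the rest of the array. Among 10718 expressed genes the median difference was 0.03, and the central 95% ran from -0.39 to 0.37. Slamf1 and Slamf7 lay outside that range and the other 4 receptors inside it. A difference as low as that of Slamf1 or lower was found for 188 expressed genes (1.75%), and one as high as that of Slamf7 or higher for 138 (1.29%).

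At a log2 difference of 0.32 or more in size, 1 of the 6 receptors was called lower, against 3.99% of expressed genes, and 1 was called higher, against 3.84%. At a log2 difference of 0.5 no receptor was called, against 1.31% of expressed genes lower and 0.681% higher. Over the 3615 expressed genes whose level lay in the range of the receptors, from 9.59 to 11.75 as the mean of both arrays, 3.46% were lower and 2.43% higher by 0.32 or more. A technical yardstick came from 4908 genes with several expressed probe sets, whose 2 brightest sets gave differences that were 0.084 apart at the median and 0.31 apart at the 95th percentile. The differences of Slamf1 and Slamf7 exceeded the upper figure and those of the other 4 were under the median. This yardstick covers probe sets on the same arrays and says nothing of the spread between cultures.

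The family had no common direction. As deposited, 4 receptors were higher and 2 lower with a median of 0.03, beside 0.03 over all expressed genes, of which 56.9% were higher. The split was 3 higher and 3 lower after quantile normalization or loess, when 49.2% and 47.4% of expressed genes were higher.

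**Figure D2:**
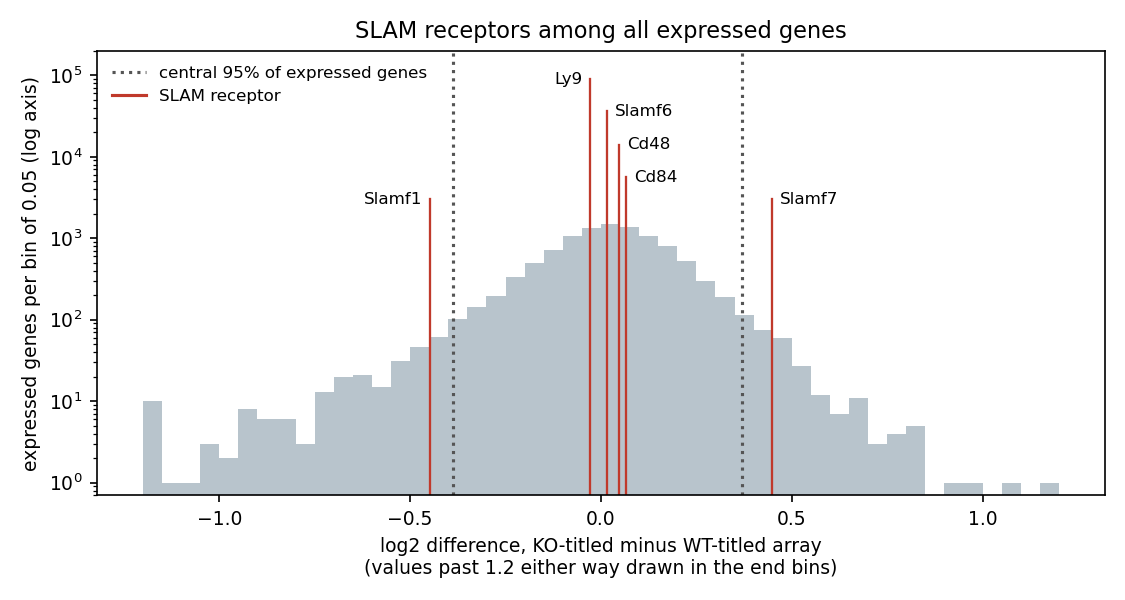
Histogram of the log2 difference (KO-titled minus WT-titled array) of 10718 expressed genes on a log count axis, with red lines for the 6 SLAM receptors, whose heights carry no value. Slamf1 (-0.45) and Slamf7 (0.45) lie outside the dotted central 95%, and Ly9, Slamf6, Cd48 and Cd84 lie in the middle.

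All 6 genes sit side by side on mouse chromosome 1 in GRCm38.p6, within 360 kb. In order they are Ly9 (chr1:171588613-171607410), Slamf7 (chr1:171632403-171653037), Cd48 (chr1:171681245-171705258), Slamf1 (chr1:171767131-171801184), Cd84 (chr1:171839697-171890718) and Slamf6 (chr1:171917458-171948958). The higher Slamf7 and the lower Slamf1 are thus separated by Cd48, which differed by 0.05. No other gene analysed as expressed lies between the members. Where in each gene the probe sets lie was not determined here.

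The 15 expressed genes on either side of the cluster had no common direction as deposited, with 15 higher, 15 lower and a median of -0.00078. Of all expressed genes 56.9% were higher as deposited. After quantile normalization 10 neighbours were higher and 20 lower, beside 49.2% of all expressed genes higher. After loess 9 neighbours were higher and 21 lower, beside 47.4%. The highest neighbour was Usf1, a basic helix-loop-helix transcription factor gene, with 8.50 on the KO-titled array and 8.26 on the WT-titled array (0.24). The lowest was Cfap126, a gene of motile cilia, with 6.64 on the KO-titled array, below the level for expression, and 7.17 on the WT-titled array (-0.53). By a log2 difference of 0.32 or more 3 of the 30 were lower, beside 3.99% of all expressed genes. By as much 0 were higher, beside 3.84%. Of the lower ones Cfap126 and F11r counted as expressed through the WT-titled array alone. The other was Ifi209, at 12.75 on the KO-titled array and 13.18 on the WT-titled array (-0.43). The nearest expressed genes, F11r before Ly9 (-0.40) and Vangl2 after Slamf6 (0.11), were picked after their values were seen, and F11r lay below the level for expression on the KO-titled array.

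**Figure D3:**
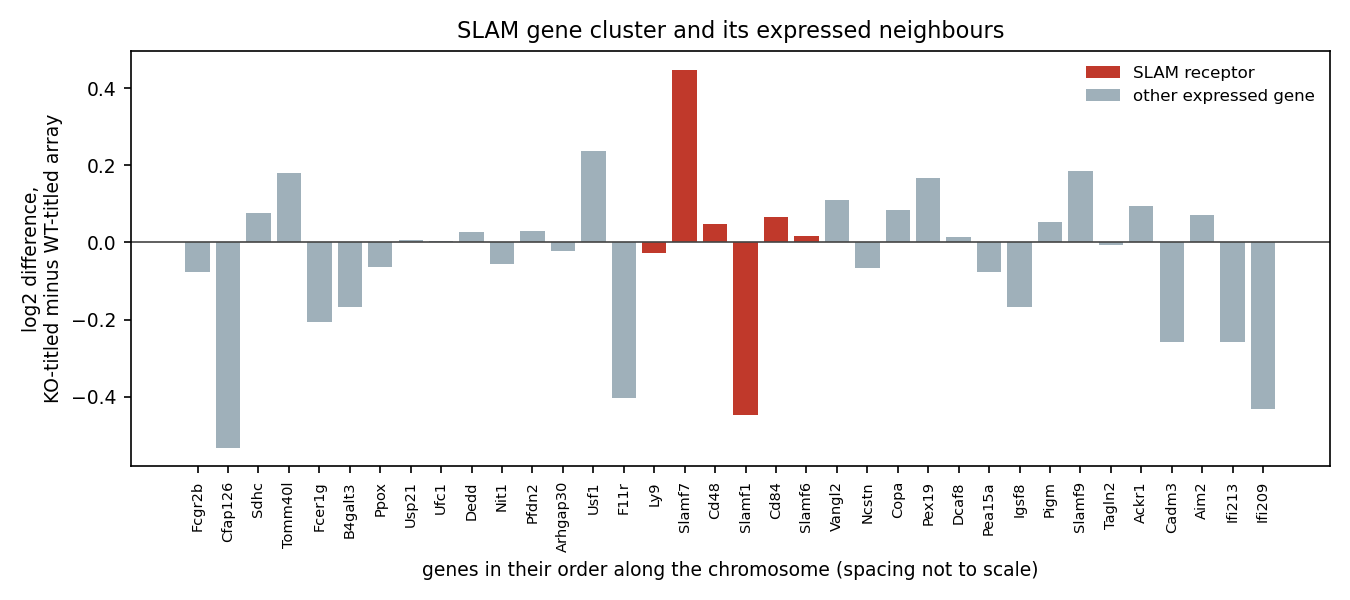
Log2 difference (KO-titled minus WT-titled array) of the 6 SLAM receptors, in red, and of 15 expressed genes on each side, in grey, in chromosomal order. Slamf7 is the highest bar of the window and Cfap126 the lowest. Ly9, Cd48 and Cd84, the receptor genes beside Slamf7 and Slamf1, do not share their size. Of the 30 flanking genes 3 were lower by 0.32 or more, beside 3.99% of all expressed genes. By as much 0 were higher, beside 3.84% of all expressed genes.

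The sequences before a transcript start of the receptors at the ends of the range are shown because these genes differed in opposite directions within one cluster. They are the 250 bases before 1 RefSeq transcript start of each gene, on the coding strand. The Slamf1 window is chr1:171766882-171767131 on the plus strand, with 47.2% G and C, and the Slamf7 window is chr1:171649000-171649249 on the minus strand, with 38% G and C. The Slamf7 window lies inside the gene span given above, before an internal transcript start, and is not the sequence upstream of the whole gene.

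Slamf1 window: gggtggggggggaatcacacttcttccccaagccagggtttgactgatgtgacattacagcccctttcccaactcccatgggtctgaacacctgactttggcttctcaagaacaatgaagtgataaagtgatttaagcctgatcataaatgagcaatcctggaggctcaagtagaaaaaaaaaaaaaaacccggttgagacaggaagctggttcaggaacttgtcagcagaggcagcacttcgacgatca
Slamf7 window: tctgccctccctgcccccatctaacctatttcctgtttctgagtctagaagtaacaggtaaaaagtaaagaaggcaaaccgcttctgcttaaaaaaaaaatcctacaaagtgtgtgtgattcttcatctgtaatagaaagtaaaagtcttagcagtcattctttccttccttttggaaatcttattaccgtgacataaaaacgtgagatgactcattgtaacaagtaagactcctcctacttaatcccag

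Both strands of these windows were searched for a PU box (GAGGAA), a kappaB-like string (GGGANTTTC) and an interferon regulatory factor string (GAAANNGAA), and no match was found in either, so no base is in capitals. These strings occur in 23.3%, 0.941% and 7.13% of 32851 mouse windows of the same length. Windows for 5 of the 6 receptors could be searched. The Cd84 window held 1 match to the interferon regulatory factor string, and those of Cd48 and Slamf6 held none of the 3 strings. The Cd48 window, chr1:171681742-171681991 on the plus strand, also lies inside the span given above for its gene. A match or its lack describes the letters of these windows and not binding by a factor.

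The genes that carry SLAM signals were described as a list of 30. Of these, 23 were measured by a singly named probe set and 22 were expressed. As deposited 15 of the 22 were higher and 7 lower, and their median was 0.04 beside 0.03 over all expressed genes. The split was 12 higher and 10 lower after quantile normalization or loess. By 0.32 or more 0 were higher and 2 lower, beside 3.84% and 3.99% of all expressed genes.

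Among adaptors Sh2d1a, the gene of SAP, read 3.97 on the KO-titled array and 4.03 on the WT-titled array. Both are below the level for expression, so no direction is given. The genes of its relatives, Sh2d1b1 and Sh2d1b2, were not analysed here.

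Of the Src family and related kinases 3 were analysed. Fyn, the kinase that SAP brings to the receptors, had 10.62 on the KO-titled array and 10.42 on the WT-titled array (0.20), and both its probe sets were higher, by 0.11 and 0.20. Fgr, a Src family kinase of myeloid and B cells, had 6.94 on the KO-titled array and 7.24 on the WT-titled array (-0.29). Its other expressed set differed by -0.06.

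Of the phosphatases and inhibitory partners 4 of 7 were higher and 3 lower. Inpp5d, which encodes the lipid phosphatase SHIP1 and is a well known miR-155 target, was the lowest member at 11.03 on the KO-titled array and 11.39 on the WT-titled array (-0.36). Its 2 probe sets gave -0.36 and -0.35. Ptprc, the gene of the receptor phosphatase CD45, was the highest at 13.53 on the KO-titled array and 13.43 on the WT-titled array (0.10).

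Downstream genes split 5 higher and 3 lower as deposited, and 3 higher and 5 lower after quantile normalization or loess, when Plcg1 and Plcg2, the phospholipase C gamma genes, turned sign. Malt1, the gene of a protease that acts on the way to NF-kB, had 10.49 on the KO-titled array and 10.83 on the WT-titled array (-0.34), and its 3 probe sets ranged from -0.43 to -0.34. Prkcb, the gene of a protein kinase C form that acts in B cell receptor signalling, had 11.68 on the KO-titled array and 11.44 on the WT-titled array (0.25). Its 2 expressed sets gave 0.25 and 0.32. The ends of the group thus lay in opposite directions.

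SLAMF1 in phagosomes is known to bind a lipid kinase complex with Beclin 1. Read by their brightest probe sets, all 4 genes of that complex were higher as deposited, with a median of 0.10. They ran from Becn1, the Beclin 1 gene (0.02), to Pik3r4, the complex's regulatory subunit gene (0.15). The expressed sets of Becn1 ranged from -0.09 to 0.04 and disagreed in sign, so no direction is given for Becn1. After quantile normalization or loess Becn1 turned negative and 3 were higher, with medians of 0.065 and 0.049. None of the 4 reached 0.32.

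**Figure D4:**
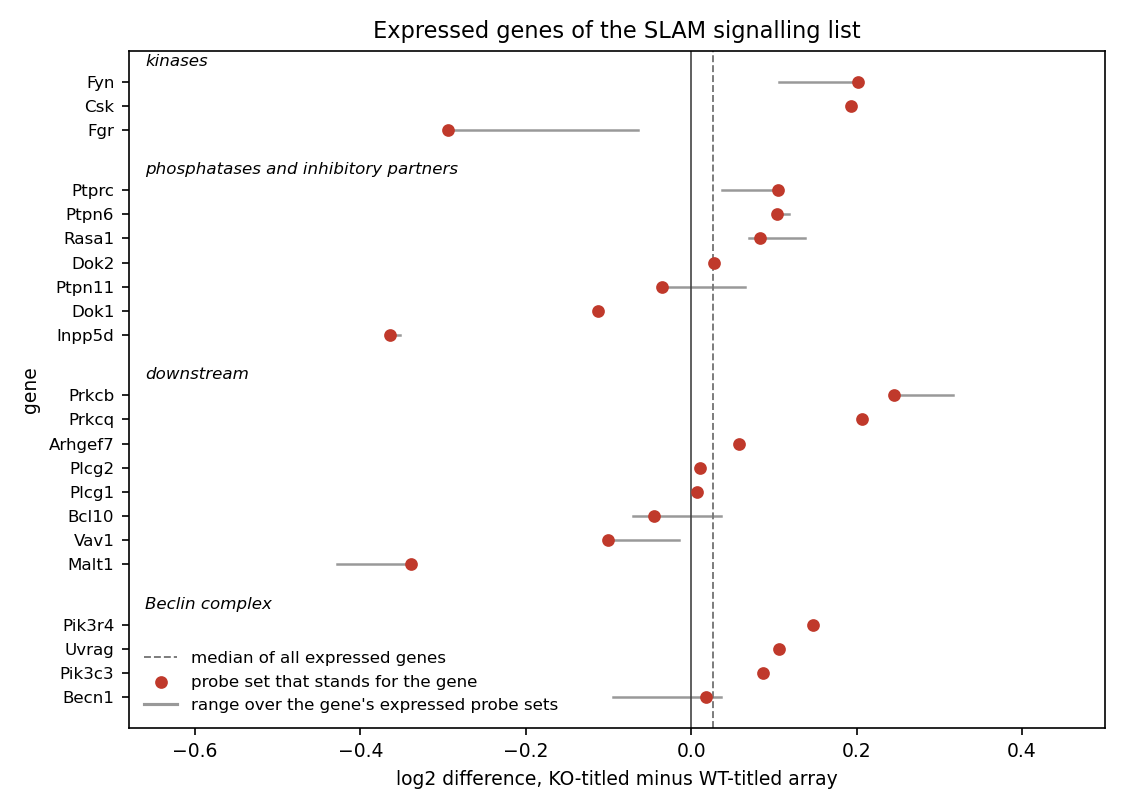
Log2 difference (KO-titled minus WT-titled array) of the 22 expressed genes of the SLAM signalling list by group. Points are the probe sets that stand for each gene, grey lines span its expressed probe sets, and Inpp5d and Malt1 are the members lower by 0.32 or more.

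Relatives and ligands outside the 6 receptors were few. Cd2, the gene of a CD48 ligand, had 7.86 on the KO-titled array and 7.19 on the WT-titled array, a 1.58-fold higher level (0.66) read by 1 probe set. Slamf9 had 8.81 on the KO-titled array and 8.62 on the WT-titled array (0.19). Cd244a, the gene of the other CD48 ligand, had 5.72 on the KO-titled array and 5.92 on the WT-titled array. Slamf8 had 4.79 on the KO-titled array and 4.64 on the WT-titled array. Cd244a and Slamf8 were below the level for expression on both arrays. So of the CD48 ligands Cd2 alone was expressed here, and it differed by more than Cd48 itself (0.05).

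SLAM receptors are made by many blood cells, so markers of other cells were read on the same arrays. Of all expressed genes 56.9% were higher on the KO-titled array, with a median difference of 0.03. B cell markers were higher on the KO-titled array in 7 of 7 expressed genes of 8 measured, with a median of 0.20, from Ebf1 (0.12) to Blk (0.50). Their summed intensity was 14.99 on the KO-titled array and 14.77 on the WT-titled array on the log2 scale, and Fcrla was below the level for expression. Macrophage and monocyte markers were lower in 6 of 7 expressed genes of 8 measured, with a median of -0.24, from Tyrobp (-0.39) to Adgre1 (0.03). Most lay near the level for expression of 6.71, with a median level of 6.88 on the KO-titled array and 7.21 on the WT-titled array. Fcgr1 (-0.20), 1 of the lower genes, counted as expressed through the WT-titled array alone, and 5 of 6 were lower without it. The summed intensity was 10.36 on the KO-titled array and 10.62 on the WT-titled array, and Itgam was below the level for expression.

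Dendritic cell markers were lower in 3 of 4 expressed genes of 8 measured, with a median of -0.18, from Zbtb46 (-0.44) to Batf3 (0.37), and a sum of 12.77 on the KO-titled array and 12.90 on the WT-titled array. The sum rests mostly on Ccr7, at 12.26 on the KO-titled array and 12.34 on the WT-titled array. Itgax, Siglech, Xcr1 and Cd209a were below the level for expression. Slamf1 was lower and Slamf7 higher, while Cd48, Ly9, Slamf6 and Cd84 differed by 0.07 or less. The part of cell makeup in any of these differences was not tested.

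Plasma cell markers, of interest for Slamf7, were mixed in sign, but the largest differences were those of the lower genes. Of 7 expressed genes of 8 measured 5 were higher and 2 lower, with a median of 0.05 and a sum of 15.01 on the KO-titled array and 14.98 on the WT-titled array. The sum rests mostly on Mzb1 (0.11), Xbp1 (0.03) and Irf4 (0.05). The range of the markers ran from Prdm1, the gene of the plasma cell regulator Blimp-1 (-1.19), to Derl3, a gene of protein export from the endoplasmic reticulum (0.19). The other lower gene was Jchain, at 7.65 on the KO-titled array and 8.21 on the WT-titled array (-0.56). Both lower genes thus passed a log2 difference of 0.5, and 0 of the higher genes did. Of all expressed genes 1.31% were lower and 0.681% higher by as much. Slamf7 (0.45) was opposite in sign to Prdm1 and Jchain, and a link between them was not tested. Tnfrsf17 was below the level for expression.

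T cell markers had 5 expressed genes of 7 measured, 3 higher and 2 lower, from Cd3d (-0.12) to Cd3e (0.25), with a sum of 10.00 on the KO-titled array and 9.98 on the WT-titled array. Of 6 natural killer cell markers Prf1 (-0.05) and Gzmb (0.01, turning to -0.04 after quantile normalization or loess) were expressed. Of 9 neutrophil markers Camp (-0.07) and Prtn3 (-0.05) were, Camp at 6.80 on the KO-titled array and 6.88 on the WT-titled array, and of 6 stem and progenitor markers 0 were. The B cell label thus had its defining markers on both arrays, while Kit, Cd34 and Mpo, markers of the progenitors named in the growth protocol, were below the level for expression.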

How the data were processed

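The deposited table holds log2 intensities of 45101 probe sets on 2 Affymetrix arrays, from 3.09 to 15.4. The unit was read from the values. How the authors summarised and normalized them is not given in the sources used here. Ranked from low to high, the columns were never more than 0.063 apart, and with distributions this alike a difference in total RNA per cell would not show. Biotin-labelled cRNA was made with the 3' IVT Express kit, per the labels' protocols.

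Probe sets were named from the platform annotation and checked by Entrez number against RefSeq genes of GRCm38.p6 (34945 with 1 gene, 932 with several, 9160 with none, and 64 controls; 34754 matched and 0 symbols changed). Each gene took its probe set with the highest mean of both arrays, and 10718 of 18194 genes were expressed at a mean of 6.71 or more. Differences are KO-titled minus WT-titled array, with no test. The number of arrays limits the precision.

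The members, gene lists, motifs and thresholds (log2 differences of 0.32 and 0.5) were chosen with earlier results of these data known. Named genes are the 6 receptors, Mir155hg, relatives and ligands, adaptors, and the highest and lowest expressed member of each other list or group. Jchain, Mzb1, Xbp1, Irf4, Fcgr1, Ccr7, Plcg1, Plcg2, F11r, Vangl2, Ifi209, Dcaf8 and Pea15a were added after their values were seen. So were the marker genes named as below the level for expression, such as Kit, Cd34 and Mpo. No gene was named for likeness of pattern, because 2 arrays give 1 difference. Listed genes that no probe set names alone were not analysed here. The alternatives were the mean of probe sets, plain _at probe sets, quantile normalization, loess on level (span 0.3), no filter on level, and a stricter filter (75th percentile, 8.84). The steps were tested on simulated data with planted shifts larger than any receptor difference, so that test does not bear on differences of the receptors' size. The tools were statsmodels 0.14.6, NumPy 2.4.6, pandas 2.3.3 and matplotlib 3.10.9 under Python 3.11.15.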

Additional observations from a re-analysis of the deposited data

How the results depend on the processing

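Across 6 alternatives Slamf1 stayed between -0.48 and -0.39 and Slamf7 between 0.41 and 0.45, except that no value of Slamf7 could be had with plain _at probe sets. Not every alternative could move these values. A change of filter leaves the difference of a gene as it was. Averaging cannot alter Slamf7, Cd48 or Ly9, with 1 probe set each, and plain _at probe sets kept the same set for Slamf1. Cd48 ranged from 0.0079 to 0.048 and Ly9 from -0.070 to -0.03. Cd84 moved to 0.15 when its probe sets were averaged, and Slamf6 to 0.17 with plain _at probe sets, which follows from the other set being read. The number of neighbours that were higher dropped to 9 after loess. Expressed genes higher by 0.5 or more numbered 73, 45 with the mean of probe sets and 24 with the filter at the 75th percentile. Those lower by as much numbered 140, 252 without a filter and 85 with the stricter filter, in step with the genes tested (18194 and 6307). The other 106 of 113 values moved by less than 0.084, the median disagreement between probe sets, or for counts and shares of genes by at most 1.5 times. These 106 include values that the alternative could not change. No array could be left out, and no paired analysis was possible because each label has 1 array. Without replicate arrays, differences between the cultures cannot be separated from differences between genotypes, and low levels near 6.71 carry the least signal.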

Other observations

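Probe sets of some genes close to the receptors, by function or by position, differed widely within one gene. The second probe set of Cd244a read 4.66 on the KO-titled array and 5.36 on the WT-titled array, a difference of -0.71 below the level for expression, against -0.20 for the first. The expressed sets of Dcaf8, a neighbour of the SLAM cluster, ranged from 0.01 to 0.63, and those of Pea15a, next to it, from -0.52 to -0.08. These genes were chosen after their values were seen, and the cause was not tested.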
